A study of Mus musculus with 8 samples.

Results

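The genes described here are 8 that mark the recruitment of T cells into a tumor: the chemokines Cxcl9, Cxcl10, Cxcl16, Ccl3, Ccl4 and Ccl5, and the receptors Cxcr3 and Cxcr6. They were taken by gene symbol, through the Ensembl identifiers of the GENCODE M21 annotation, from a count table of 55487 genes. All 8 had enough reads to be tested, among 16061 genes tested in all. No value measured in these tumors entered that choice, although earlier results of the same data were known when it was made. RNA came from 8 tumors formed by Lewis lung carcinoma (LLC) cells, which derive from a lung cancer of C57BL mice. The cells were implanted subcutaneously in syngeneic female C57BL/6J mice, and the tumors were taken at day 12. In 4 tumors the implanted cells were wild-type, and in the other 4 they were Ago2 knock-out (ΔAgo2). The labels name no drug treatment, and the question behind the comparison was what losing Ago2 in the cancer cells did to the tumor as a whole.

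Several features of the design bear on the values. The ΔAgo2 cells were made with a lentiviral CRISPR-Cas9 vector and descend from a single-cell clone, so the 4 ΔAgo2 tumors share that clone and differ in the mouse. The host mice kept Ago2, and each library holds RNA from cancer cells and host cells together. Fewer cells of a type and less RNA per cell therefore cannot be told apart. All 8 samples carry the same batch label. Library depth was very unequal, from 7903288 counts in wild-type tumor 4 to 268564145 in ΔAgo2 tumor 4, and a count of 0 allows a level of up to 0.43 CPM (counts per 1e+06 reads) in the first and up to 0.0105 CPM in the second, for counting error only. Ago2 itself, an RNA-binding protein of the RNA interference machinery, was read at 153.7 ± 28.9 CPM in wild-type tumors and at 239.5 ± 99.2 CPM in ΔAgo2 tumors (SD, n = 4 each). Its log2 fold change was 0.64 with an SE of 0.30 (adjusted p = 0.205, edgeR), so its RNA level does not check the genotype labels, and the protein was not measured in these files.

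Chemokines are small secreted proteins that guide leukocytes by binding receptors on their surface. CXCL9 and CXCL10 are made by macrophages, dendritic cells and tumor cells in response to interferons, and they bind CXCR3, carried by activated T cells and NK cells. CXCL16 is made as a membrane-anchored protein that can be shed, and it binds CXCR6, found on tissue-resident and effector T cells. CCL3, CCL4 and CCL5 are inflammatory CC chemokines, and CCL3 and CCL5 bind CCR1. CCL5 is made in quantity by cytotoxic lymphocytes, and CCL3 and CCL4 by activated myeloid cells and lymphocytes.

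The promoters of the CXCR3 ligands are shown because Cxcl9 and Cxcl10 are neighbors, 18559 bases apart on chromosome 5, and had the 2 largest positive fold changes of the 8 genes. Both sequences cover the 250 bases before the annotated start of transcription, on the minus strand, from RefSeq on GRCm38.p6. Cxcl10 lies at chr5:92348890-92349139 and Cxcl9 at chr5:92328080-92328329. Capitals mark matches, on either strand, to the interferon-stimulated response element, searched as GAAA, any 2 bases, GAAA, or to the NF-kB consensus.
Cxcl10: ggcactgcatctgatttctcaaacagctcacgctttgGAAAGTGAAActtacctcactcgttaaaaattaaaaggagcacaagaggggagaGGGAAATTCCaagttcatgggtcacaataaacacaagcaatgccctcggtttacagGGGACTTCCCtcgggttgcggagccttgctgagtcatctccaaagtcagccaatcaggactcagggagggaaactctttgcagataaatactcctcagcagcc
Cxcl9: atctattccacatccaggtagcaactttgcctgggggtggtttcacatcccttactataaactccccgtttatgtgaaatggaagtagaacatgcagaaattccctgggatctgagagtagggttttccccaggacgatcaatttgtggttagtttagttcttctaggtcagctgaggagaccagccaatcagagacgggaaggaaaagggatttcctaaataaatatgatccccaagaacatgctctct

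The Cxcl10 window held 1 interferon-stimulated response element, GAAAGTGAAA at 213 to 204 bases before the start, and 2 NF-kB matches, GGGAAATTCC ending 150 bases before the start and GGGACTTCCC ending 94 bases before it. The Cxcl9 window held neither. The Cxcl9 window held the motif TATAAA at 195 to 190 bases before the start. Among 32817 promoter windows of the same length, 2.97% held the interferon-stimulated response element, 3.9% the NF-kB consensus and 12.4% the motif TATAAA. No overlap between matches of different motifs occurred in these windows. Promoter windows of 5 of the 8 genes were in the table used, and those of Cxcr3, Cxcr6 and Ccl3 held none of these motifs. Those of Cxcl16, Ccl4 and Ccl5 were not looked at. A match is a description of letters and was not tested for binding.

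None of the 8 genes passed the test between genotypes, at an adjusted p under 0.05 in edgeR's quasi-likelihood test over all genes, where 3.49% of the genes tested passed, 1.36% higher and 2.12% lower in ΔAgo2 tumors. At an unadjusted p under 0.05, 1 of the 8 passed (Cxcl10), against 26.7% of all genes. Of the 8 log2 fold changes, ΔAgo2 over wild-type, 4 were above 0 (Cxcl10, Cxcl9, Cxcr6 and Ccl4) and 4 below (Ccl3, Cxcl16, Ccl5 and Cxcr3). Their median was 0.20, beside 0.04 over all genes tested. In none of the 8 were the CPM values of the 2 genotypes apart, against 16.4% of all genes.

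**Figure D1:**
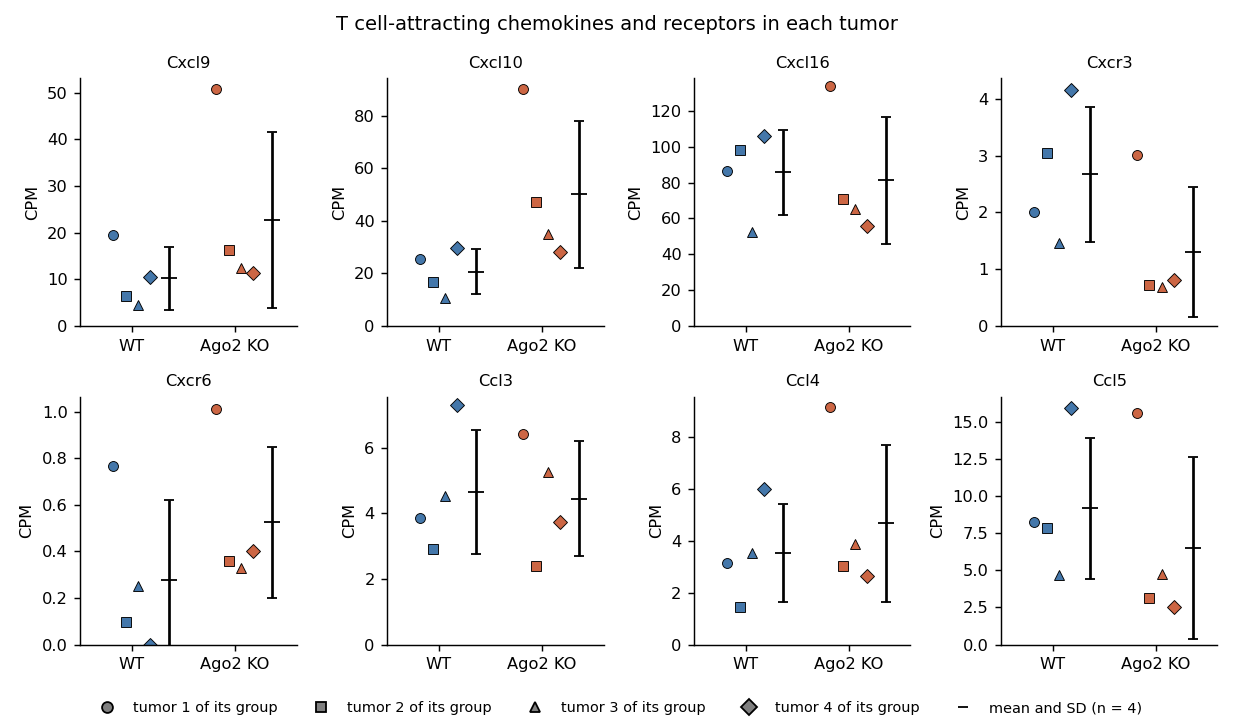
Level of each gene in CPM (linear axis from 0) in the 4 wild-type (WT, blue) and 4 ΔAgo2 (Ago2 KO, orange) tumors, 1 point per tumor, with the mean and SD beside each group; the lower SD bar of Cxcr6 in WT tumors is cut at 0. ΔAgo2 tumor 1 (circle) is the highest of its group in all 8 panels, and the groups overlap in every panel.

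Cxcl10, which draws CXCR3-bearing lymphocytes, had the largest positive change. Its level in the wild-type tumors was 25.3, 16.9, 10.7 and 29.8 CPM, and in the ΔAgo2 tumors 90.2, 47.3, 34.9 and 28.0 CPM, giving each group in the order of replicates 1 to 4. The groups overlapped only through ΔAgo2 tumor 4, which lay below wild-type tumor 4. The means were 20.7 ± 8.53 and 50.1 ± 27.9 CPM (SD, n = 4 each), and the log2 fold change was 1.29 (SE 0.41, 95% interval 0.38 to 2.19), or 2.44-fold. In edgeR's model across all genes its unadjusted p was 0.00944 and its adjusted p = 0.0957. On the deposited TPM, a level per transcript that divides by gene length and is scaled to the same total in each library, the groups did not overlap, at 13.7 to 32.0 in wild-type tumors and 42.3 to 87.8 in ΔAgo2 tumors. Groups were apart in TPM in 11.7% of all genes tested. The call depended on the test: DESeq2 called Cxcl10 higher in ΔAgo2 tumors (log2 fold change 1.28, adjusted p = 0.0298), where DESeq2 called 13.1% of all genes, with 6.52% of all genes called higher. So did edgeR with no count filter (1.34, adjusted p = 0.0406), where 3.24% of all genes were called and 1.7% were called higher. Limma voom with sample quality weights gave 0.72 (adjusted p = 0.102) and GC correction, which removes the trend of each library on gene GC content, gave 1.11 (adjusted p = 0.183), neither of them a call. Of its 2252 exon bases, 133 (5.91%) lie over exons of Art3 on the opposite strand, and the strand setting of the gene counting is not given in the sources used here.

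Cxcl9, the other interferon-responsive CXCR3 ligand, was read at 19.6, 6.34, 4.50 and 10.5 CPM in wild-type tumors and at 50.7, 16.2, 12.4 and 11.4 CPM in ΔAgo2 tumors. Every ΔAgo2 tumor lay above the wild-type tumors except wild-type tumor 1, which lay above 3 of them. The means were 10.2 ± 6.73 and 22.7 ± 18.8 CPM, with a log2 fold change of 1.14 (SE 0.57, 95% interval -0.10 to 2.39, adjusted p = 0.218, edgeR). Without ΔAgo2 tumor 1, at 3.13 times the next ΔAgo2 tumor, the log2 fold change was 0.37, and in a limma voom fit with sample quality weights over all 8 tumors it was 0.10 (adjusted p = 0.872). Within each tumor, the log2 ratio of Cxcl9 to Cxcl10 was -1.13 ± 0.52 in wild-type and -1.29 ± 0.33 in ΔAgo2 tumors (SD, n = 4 each), a difference of -0.16 with exact permutation p = 0.6 (two-sided, 70 assignments), so the difference in this ratio was smaller than the spread between tumors.

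Cxcl16, the ligand of CXCR6, showed no detectable difference. Its values were 86.3, 98.4, 52.5 and 105.8 CPM in wild-type tumors, and those of the ΔAgo2 tumors were 133.7, 70.6, 65.3 and 55.7 CPM. ΔAgo2 tumor 1 was the highest of the 8 and wild-type tumor 3 the lowest, so the ranges lay across each other. The log2 fold change was -0.08 (SE 0.31, 95% interval -0.76 to 0.61, adjusted p = 0.893, edgeR), and its sign turned to 0.10 on TPM, where the median of all genes also moved up, from 0.04 to 0.21 with a pseudocount of 1. Of the 3021 exon bases of Cxcl16, 552 (18.3%) lie over exons of Zmynd15 on the opposite strand, so some reads may be shared between them.

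Cxcr3, the receptor for CXCL9 and CXCL10, had the largest negative change of the 8 genes. Its level was 2.01, 3.05, 1.47 and 4.16 CPM in wild-type tumors and 3.02, 0.719, 0.687 and 0.809 CPM in ΔAgo2 tumors. ΔAgo2 tumors 2, 3 and 4 lay below every wild-type tumor, and ΔAgo2 tumor 1 lay among the wild-type tumors. The means were 2.67 ± 1.19 and 1.31 ± 1.14 CPM, and the log2 fold change was -1.00 (SE 0.56, 95% interval -2.24 to 0.24, adjusted p = 0.269, edgeR). Without ΔAgo2 tumor 1 it was -1.82 (adjusted p = 0.0356), in a fit that called 11% of all genes, with 4.99% of all genes called lower in ΔAgo2 tumors. Each tumor was left out in turn, and this one is singled out after seeing the values. Without wild-type tumor 4 and ΔAgo2 tumor 1 together, also chosen after seeing the values, none of the 8 genes passed, Cxcr3 included. The limma voom fit with sample quality weights, which gives tumors that deviate less weight, gave -1.30 (adjusted p = 0.00872), where it called 27.9% of all genes, with 13% called lower. With GC correction it was -0.70 (adjusted p = 0.428).

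Cxcr6, the receptor for CXCL16, was close to the limit of detection. Its read counts were 41, 2, 12 and 0 in wild-type tumors and 49, 41, 11 and 115 in ΔAgo2 tumors. As levels these were 0.768, 0.0953, 0.252 and 0 CPM against 1.01, 0.36, 0.328 and 0.403 CPM. Wild-type tumor 1 lay within the ΔAgo2 range, and the other wild-type tumors lay below it, although the 0 in the shallow wild-type tumor 4 allows up to 0.43 CPM, within the ΔAgo2 range. The log2 fold change was 0.61 (SE 0.70, 95% interval -0.94 to 2.15, adjusted p = 0.593, edgeR), so no difference was detectable. It became -0.13 without wild-type tumor 4 and ΔAgo2 tumor 1 together, an alternative chosen after seeing the data. Cxcr6 lies within the span of Fyco1 on the opposite strand, with 0 exon bases shared.

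Ccl3 and Ccl4, inflammatory chemokine genes on chromosome 11 that lie 13229 bases apart, showed no detectable difference. Ccl3 was read at 3.86, 2.91, 4.52 and 7.31 CPM in wild-type tumors and at 6.42, 2.40, 5.25 and 3.73 CPM in ΔAgo2 tumors. Wild-type tumor 4 was the highest and ΔAgo2 tumor 2 the lowest, and the log2 fold change was -0.04 (SE 0.39, 95% interval -0.89 to 0.81, adjusted p = 0.954, edgeR). Ccl4 was read at 3.13, 1.43, 3.55 and 6.02 CPM in wild-type tumors and at 9.17, 3.04, 3.88 and 2.63 CPM in ΔAgo2 tumors. ΔAgo2 tumor 1 was the highest, and the other 3 ΔAgo2 tumors lay inside the wild-type range. Its log2 fold change was 0.44 (SE 0.50, 95% interval -0.67 to 1.54, adjusted p = 0.592, edgeR), and it was -0.12 without ΔAgo2 tumor 1.

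Ccl5, a CCR1 ligand that cytotoxic lymphocytes make, resembled Cxcr3 in which tumors were high. Its level was 8.26, 7.87, 4.65 and 15.9 CPM in wild-type tumors and 15.6, 3.11, 4.72 and 2.52 CPM in ΔAgo2 tumors. ΔAgo2 tumors 2 and 4 were the 2 lowest of the 8, ΔAgo2 tumor 3 was just above the lowest wild-type tumor, and ΔAgo2 tumor 1 was close to the highest wild-type tumor. The log2 fold change was -0.48 (SE 0.58, 95% interval -1.76 to 0.80, adjusted p = 0.611, edgeR). It was -1.40 without ΔAgo2 tumor 1 (adjusted p = 0.060) and -1.34 with the voom fit (adjusted p = 0.018). That voom fit called 27.9% of all genes, with 13% called lower in ΔAgo2 tumors. With GC correction the log2 fold change of Ccl5 was -0.28 (adjusted p = 0.798).

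**Figure D2:**
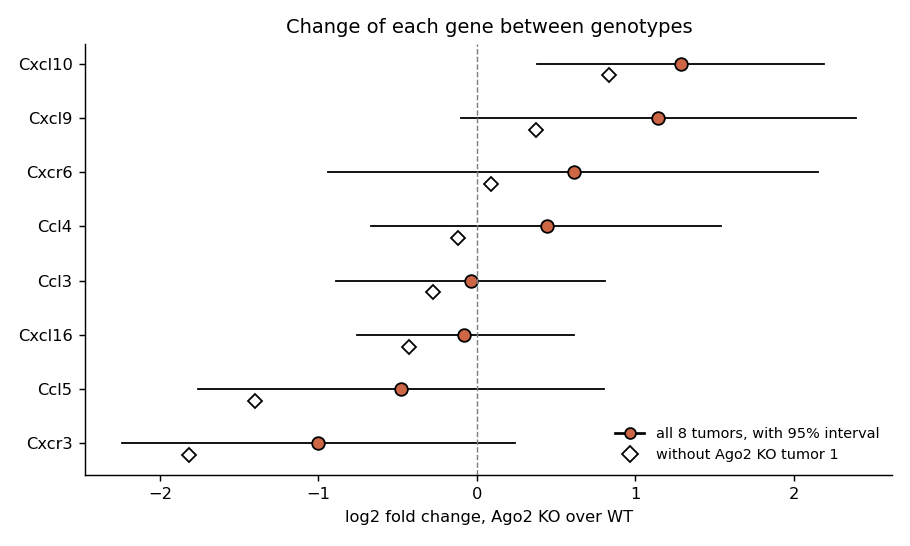
Log2 fold change of each gene, ΔAgo2 (Ago2 KO) over wild-type (WT), from the edgeR fit over all 8 tumors (circles, bars are 95% intervals) and from the fit without ΔAgo2 tumor 1 (open diamonds, no interval drawn). Only the interval of Cxcl10, from 0.38 to 2.19, lies wholly above 0, and each diamond lies to the left of its circle.

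A single ΔAgo2 tumor was high across the set. ΔAgo2 tumor 1 was the highest of the 4 ΔAgo2 tumors for all 8 genes, against 38.7% of all genes tested, and it was among the 2 highest of all 8 tumors for 7 of the 8 genes, against 26.8%. Wild-type tumor 4, the shallowest library, was the highest wild-type tumor for 6 of the 8, against 29.6%. These counts are in CPM. In TPM, ΔAgo2 tumor 1 was the highest of its group for 7 of the 8 (15.3% of all genes) and among the 2 highest of all tumors for 6 (10.9%), and wild-type tumor 4 was the highest wild-type tumor for 3 (10.3%). The ratio of ΔAgo2 tumor 1 to the next ΔAgo2 tumor ran from 1.22 for Ccl3 to 3.73 for Cxcr3. The same tumor was highest of its group for 11 of 12 T cell markers, whose summed level was 51.9 CPM, against 12.6 to 16.2 CPM in the rest of the group and 10.7 to 29.1 CPM in wild-type tumors. Among these markers only Cd28 was listed at 0 in any tumor, wild-type tumor 4. Summed macrophage markers reached 2770 CPM there, against 1091 to 1308 CPM in the rest of the group and 1596 to 1849 CPM in wild-type tumors. That sum was carried by the complement genes C1qa, C1qb and C1qc, at 2231.9 CPM together in ΔAgo2 tumor 1 and 974.7 to 1403.4 CPM in wild-type tumors. The other 5 macrophage markers summed to 537.9 CPM there, 414.9 to 514.4 CPM in the rest of the group and 445.3 to 627.2 CPM in wild-type tumors, so that tumor lay within the wild-type range for them. Summed CD8 and cytotoxic markers reached 38.2 CPM, against 20 to 21.8 CPM in the rest of the group and 9.69 to 22.4 CPM in wild-type tumors, and Gzmk, which encodes a granzyme, was at 0 in wild-type tumors 2 and 4. In ΔAgo2 tumor 1 that sum held Gzmb at 14.1, Prf1 at 10.9 and Gzma at 7.92 CPM, with Cd8a at 2.75 and Cd8b1 at 2.3 CPM. Cd8a was at 0.597 to 0.728 CPM in the rest of the group and 0.42 to 1.29 CPM in wild-type tumors. The sum is therefore not a level of CD8 genes alone. The part of these cell types in the chemokine values was not tested.

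**Figure D3:**
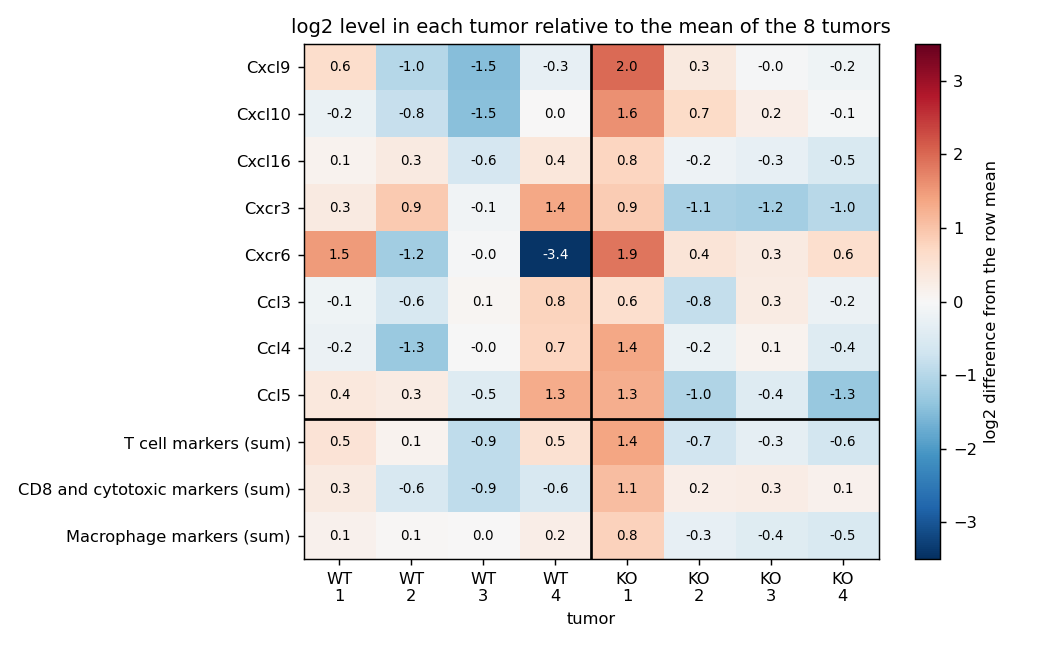
Log2 level of each gene (rows above the black line) and of 3 summed marker lists (rows below it) in each tumor, as the difference from the row's mean over the 8 tumors; red is above the mean, blue below, and wild-type (WT) and ΔAgo2 (KO) tumors are divided by the vertical line. ΔAgo2 tumor 1 is above the mean in all 11 rows, and the -3.4 of Cxcr6 in WT tumor 4 rests on a count of 0.

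Levels of different genes can be set side by side only per length, as TPM. In wild-type tumors the order of mean TPM was Cxcl16 at 73.7 ± 18.2, Ccl5 at 23.8 ± 7.96, Cxcl10 at 23.4 ± 7.8, Ccl3 at 15.4 ± 3.62, Ccl4 at 13.4 ± 5.21, Cxcl9 at 8.95 ± 6.48, Cxcr3 at 3.9 ± 1.24 and Cxcr6 at 0.412 ± 0.503 (SD, n = 4). Cxcl16 stood clear of the next gene in that order, and Cxcr6 stood clear below Cxcr3, while all other neighbors in the order had overlapping values. In ΔAgo2 tumors the order was Cxcl16 at 78.4 ± 15.8, Cxcl10 at 64 ± 21.9, Cxcl9 at 20.6 ± 11.3, Ccl4 at 19.9 ± 7.38, Ccl5 at 18 ± 12.1, Ccl3 at 17 ± 4.24, Cxcr3 at 2.04 ± 1.19 and Cxcr6 at 0.767 ± 0.259. There Cxcl10 overlapped Cxcl16 and lay clear of Cxcl9, the 4 genes from Cxcl9 to Ccl3 overlapped each other, and the 2 receptors lay clear below them and of each other. Cxcl16 had the highest TPM of the 8 genes in all 8 tumors.

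To set the receptors and Ccl5 against the T cells present, each was divided by the summed CPM of the 12 T cell markers within the same tumor. The log2 ratio of Cxcr3 was -3.77, -2.83, -2.83 and -2.80 in wild-type tumors and -4.09, -4.08, -4.51 and -3.94 in ΔAgo2 tumors. All ΔAgo2 tumors lay below all wild-type tumors, ΔAgo2 tumor 1 included, and the difference was -1.10 with exact permutation p = 0.0286, two-sided, which is the smallest that 4 tumors against 4 allow, and 0.114 after adjustment over the 4 ratios. The adjusted value therefore missed the threshold. Levels in these ratios carry no GC correction, and the trends of the libraries on gene GC content differed. The log2 ratio of Ccl5 was -1.32 ± 0.37 in wild-type and -1.96 ± 0.28 in ΔAgo2 tumors (SD, n = 4 each), a difference of -0.64 (exact permutation p = 0.0571, adjusted 0.114). For Cxcr6 the difference was 1.71 (exact permutation p = 0.286, adjusted 0.381), and it rests in part on the wild-type tumor with a count of 0, where the ratio depends on the prior count.

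**Figure D4:**
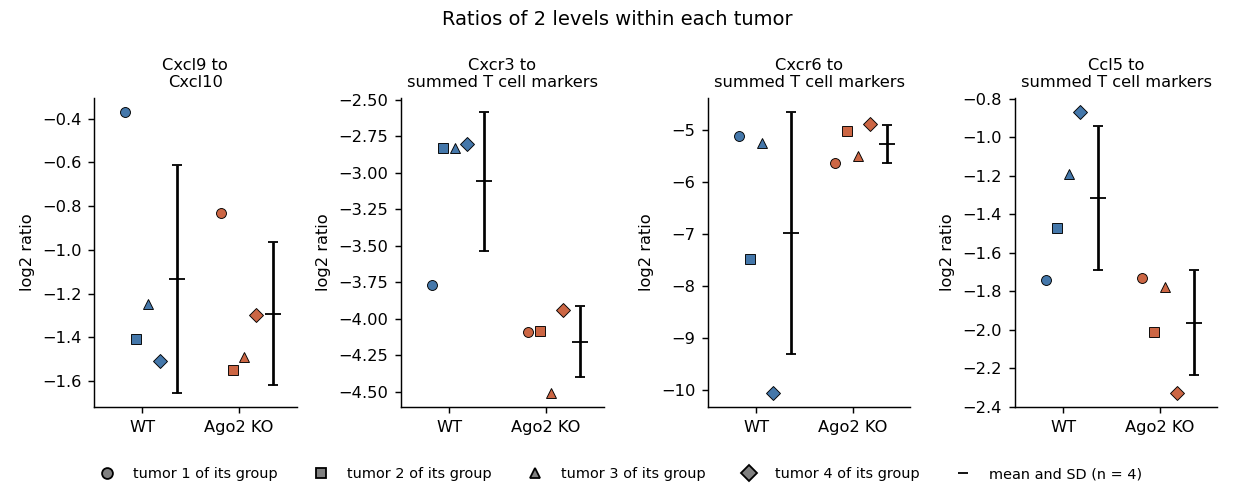
Log2 ratio of Cxcl9 to Cxcl10, and of Cxcr3, Cxcr6 and Ccl5 to the summed CPM of 12 T cell markers, within each wild-type (WT, blue) and ΔAgo2 (Ago2 KO, orange) tumor, with mean and SD; axes do not start at 0. Of these ratios, groups are apart only for Cxcr3, at -3.77 to -2.80 in WT and -4.51 to -3.94 in Ago2 KO tumors. How many other genes would be apart in such a ratio was not counted.

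Receptors and a ligand shared with these genes were read next. In this group of 7 genes none passed the test, with log2 fold changes from -0.76 to 1.20. Ccr1, a receptor for CCL3 and CCL5, was at 26.8 ± 13.4 CPM in wild-type and 53.9 ± 7.06 CPM in ΔAgo2 tumors (log2 fold change 1.00, adjusted p = 0.103, edgeR). The groups of Ccr1 did not overlap in CPM, as in 16.4% of all genes tested. DESeq2 called it (1.00, adjusted p = 0.0448), in a fit that called 13.1% of all genes, with 6.52% of all genes called higher. With GC correction the log2 fold change of Ccr1 was 0.43 (adjusted p = 0.311). Cxcl11, the remaining CXCR3 ligand and annotated as a polymorphic pseudogene in this strain's reference, was at 0 to 0.525 CPM in wild-type and 0.427 to 1.37 CPM in ΔAgo2 tumors (1.20, adjusted p = 0.22). Of 4 genes for shedding or trimming of the ligands none passed. Adam10, the main protease that sheds CXCL16, was at 56.2 ± 15.4 and 139.5 ± 72.7 CPM (1.31, adjusted p = 0.0799). The same DESeq2 fit called it higher in ΔAgo2 tumors (1.31, adjusted p = 0.0175), while with GC correction it was 0.74 (adjusted p = 0.164). Adam17, a related sheddase, had a log2 fold change of 0.64 (adjusted p = 0.159). Without ΔAgo2 tumor 1 it was 0.82 (adjusted p = 0.0407), in a fit that called 11% of all genes. With GC correction it was 0.33 (adjusted p = 0.338).

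Among 27 other lymphocyte-attracting chemokines and receptors, 21 were tested and 1 passed. Ccl28, a ligand of CCR10 and CCR3 made by epithelial cells, was at 0.319, 0.191, 0.420 and 0.573 CPM in wild-type tumors and at 0.882, 2.13, 0.955 and 1.81 CPM in ΔAgo2 tumors. It was higher in all 4 ΔAgo2 tumors than in any wild-type tumor (log2 fold change 2.04, SE 0.47, adjusted p = 0.0455, edgeR). Groups were apart in CPM, in either direction, for 16.4% of all genes tested. The call was near the threshold: it was lost without wild-type tumor 1, 2 or 4 or ΔAgo2 tumor 2, 3 or 4, with adjusted p = 0.157 without ΔAgo2 tumor 4, and with GC correction (1.46, adjusted p = 0.0893). Of the interferon-gamma axis, 18 of 20 genes were tested and none passed, with a median log2 fold change of 0.25. Ifng, the cytokine that drives Cxcl9, was too low to be tested, at 0.0953 to 0.717 CPM in wild-type and 0.102 to 0.718 CPM in ΔAgo2 tumors. Irf1, a transcription factor that interferons induce, had a log2 fold change of 0.11 (adjusted p = 0.793). All 13 NF-kB subunits and regulators were tested and none passed, with a median of -0.10. Over all 71 of these other pathway genes, 63 were tested and 1 passed, or 1.59%, with a median of 0.05.

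Markers of the cells that could make or carry these genes were counted likewise. None of 12 T cell markers passed (median log2 fold change 0.11, range -0.58 to 1.17). Cd3e, a subunit of the T cell receptor complex, was at 0.568 to 2.29 CPM in wild-type and 0.651 to 3.61 CPM in ΔAgo2 tumors (log2 fold change 0.01, and -0.92 without ΔAgo2 tumor 1). None passed among 5 CD8 and cytotoxic markers tested of 6 (median 0.72, Cd8a 0.52 with adjusted p = 0.589), 6 NK markers (median 0.92, Ncr1 0.90 with adjusted p = 0.165), or 6 pan-leukocyte markers (median 0.44, Ptprc 1.12 with adjusted p = 0.0785). The pan-leukocyte markers ran from -0.87 to 1.12, and their sums overlapped, at 479.2 to 912.8 CPM in wild-type and 448.6 to 851.5 CPM in ΔAgo2 tumors. Ptprc, which encodes CD45, was apart between groups in CPM but overlapped in TPM. DESeq2 called Ptprc higher in ΔAgo2 tumors (1.12, adjusted p = 0.0196), where it called 13.1% of all genes, with 6.52% of all genes called higher. With GC correction the log2 fold change of Ptprc was 0.39 (adjusted p = 0.306). Ncr1, an activating receptor of NK cells, was apart between groups in CPM and TPM. Groups were apart in CPM for 16.4% and in TPM for 11.7% of all genes tested. None of 8 macrophage markers passed (median -0.05, range -0.51 to 0.77, Csf1r -0.40 with adjusted p = 0.236). Nor did any of 7 dendritic (median -0.12), 5 neutrophil (-0.27), 2 tested of 4 B cell (-0.03), 5 endothelial (-0.02), 5 fibroblast (-0.64) or 5 skeletal muscle markers (-3.01). Of 5 keratinocyte markers (median 1.57), Krt10, a keratin of differentiated skin, passed at 15.4 ± 8.59 against 64.4 ± 17.2 CPM (log2 fold change 2.06, adjusted p = 0.046). That call was lost without the same 6 tumors in turn, with adjusted p = 0.139 without ΔAgo2 tumor 4. The skeletal muscle markers were lower in ΔAgo2 tumors in all 5 values. They summed to 2965 CPM in wild-type tumor 3, to 195.7 to 412.8 CPM in the other wild-type tumors and to 33.4 to 161.9 CPM in ΔAgo2 tumors.

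The genes whose pattern over the 8 tumors was most like each of the 8 were found among 12811 genes, by the root-mean-square difference of log2 CPM after centering each gene on its mean. For Cxcl10 they were Bst2 (0.25), Apol9a (0.26) and H2-T23 (0.27), and for Ccl5 they were Lag3 (0.18), H2-Ab1 (0.22) and H2-DMa (0.24). For Cxcl16 they were Ppfia4, Ifi35 and Irf8 (0.10 to 0.12), and for Cxcl9 they were Bcl2a1a, Trbc2 and Sh2d1b1 (0.29 to 0.37). Those of Cxcr3 were Nudt14, Rdm1 and Dcxr (0.19 to 0.26), and those of Ccl3 were Tmem252, Pdgfa and Rpl12 (0.10 to 0.23). Those of Ccl4 were Gm2830, Gm10074 and Mthfs (0.18 to 0.26), and Cxcr6, with few reads, had no gene closer than 0.52 (Akr1c13, Arhgap15 and Ggh, 0.52 to 0.55). All of these share the same 8 libraries and their unequal depths, so the likeness is a description.

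Positions are given on mm10, from GENCODE M21. Cxcl9 (ENSMUSG00000029417.9) spans chr5:92321347-92328079 and Cxcl10 (ENSMUSG00000034855.13) spans chr5:92346638-92348889, both on the minus strand. Ccl5 (ENSMUSG00000035042.2) lies at chr11:83525778-83530518 and Ccl3 (ENSMUSG00000000982.5) at chr11:83647844-83649355 on the minus strand, and Ccl4 (ENSMUSG00000018930.3) at chr11:83662584-83664683 on the plus strand. Cxcl16 (ENSMUSG00000018920.11) lies apart from them at chr11:70453983-70459984, minus strand. Cxcr3 (ENSMUSG00000050232.6) lies at chrX:101731535-101734269, minus strand, and Cxcr6 (ENSMUSG00000048521.8) at chr9:123806475-123811760, plus strand. Of 35 other genes, protein-coding within 100000 bases of a member of the set or overlapping it, 25 were tested and none passed.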

How the data were processed

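RNA of 8 LLC tumors (4 wild-type, 4 ΔAgo2) was made into stranded, poly(A)-selected libraries and sequenced in paired-end mode on an Illumina NovaSeq. The submitters' processing notes name STAR and mm10, and the methods name featureCounts for the cultured lines. The annotation release, strand setting and treatment of multi-mapping reads are not given in the sources used here. The authors deposited raw counts per gene and, separately, deposited TPM (counts divided by gene length and scaled to a fixed total per library). No sample column was left unused (0). Gene identifiers were matched with version to GENCODE M21 for 99.29% of rows.

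Counts were filtered (filterByExpr), scaled by TMM and tested with edgeR 4.0.16 (quasi-likelihood, genotype only, Benjamini-Hochberg over 16061 genes, threshold 0.05) in R 4.3.3. The test was also run on simulated counts with planted changes. Those counts hold no GC trend and no single deviant tumor, so they do not give the power or error rate of the test in these tumors. CPM values use TMM-scaled totals, log2 values a prior count of 2, and zero counts an upper limit of 3. Ratios within a tumor were compared by exact two-sided permutation of all 70 assignments (Python 3.11.15). The p-values cover the spread between tumors, each labelled a biological replicate. Alternatives were DESeq2 1.42.0, limma 3.58.1 (voom, and log2 TPM), other scalings and filters, a replicate block, GC correction, equal depth and leaving out each tumor.

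The genes and the 17 other gene lists (pathway groups and cell type markers) were chosen with earlier results of these data known. Named genes are the 8 genes, list genes past the threshold (at most 4 per list), a fixed set of receptors, proteases, interferon genes and cell type genes, Ago2, the 3 genes closest in pattern to each of the 8, and protein-coding neighbors within 100000 bases that passed the test or overlapped. Some listed genes and a motif are not reported here.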

Additional observations from a re-analysis of the deposited data

Results flagged for a closer look

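Within the 4 tumors of a group, 48 sets of values (genes, ratios and marker sums) were examined for a tumor far from the other 3. The limit was Dixon's 95% critical value, and 10 sets held such a tumor. Chance gives about 2.4 if values are normally distributed, but most of these were CPM on a linear scale. In CPM, ΔAgo2 tumor 1 was the highest of its group for 38.7% of all genes tested. How often it lay this far from the other 3 over all genes was not counted. An excess over chance is therefore not shown for these sets. Of the 10 sets, 8 concerned ΔAgo2 tumor 1. Cxcl9 was 50.7 CPM there and 11.4 to 16.2 CPM in the other 3 ΔAgo2 tumors. Cxcr3 was 3.02 CPM there against 0.687 to 0.809 CPM. Cxcr6 was 1.01 CPM against 0.328 to 0.403 CPM. Ccl5 was 15.6 CPM against 2.52 to 4.72 CPM. In the same tumor, summed T cell markers were 51.9 CPM against 12.6 to 16.2 CPM, summed CD8 and cytotoxic markers were 38.2 CPM against 20 to 21.8 CPM, summed macrophage markers, mostly C1q genes, were 2770 CPM against 1091 to 1308 CPM, and summed B cell markers were 3.39 CPM against 1.11 to 1.19 CPM. These values come from the same library and are not separate observations.

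Among wild-type tumors, the log2 ratio of Cxcr3 to T cell markers was -3.77 in tumor 1 and -2.83 to -2.80 in the other 3. Summed skeletal muscle markers were 2965 CPM in wild-type tumor 3 and 195.7 to 412.8 CPM in the other wild-type tumors. The part of muscle RNA in the chemokine values of that tumor was not tested.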

How the results depend on the processing

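Of the 8 genes, none passed in the edgeR fit, where 3.49% of all genes did. With DESeq2 1 passed (Cxcl10, log2 fold change 1.28), against 13.1% of all genes. With limma voom 2 passed (Cxcr3 -1.30, Ccl5 -1.34), against 27.9%. In edgeR with no count filter 1 passed (Cxcl10, 1.34, adjusted p = 0.0406), against 3.24%. On leaving out single tumors 0 to 1 passed (Cxcr3 without ΔAgo2 tumor 1, against 11%). Without wild-type tumor 4 and ΔAgo2 tumor 1 together 0 passed. The other lists hold 144 genes, not all of them tested. Over these lists 2 genes passed in the edgeR fit (3.49% of all genes tested passed), 15 with DESeq2 (13.1%), 28 with voom (27.9%) and 11 with no filter (3.24%). With GC correction 4 passed, where 584 of all 16061 genes did, and 0 passed on the 3 TPM scales. On leaving out single tumors 0 to 11 passed, the 11 without ΔAgo2 tumor 1, where 11% of all genes passed. Over all genes the 560 calls became 2265 with DESeq2, 4476 with voom, 983 with no filter, 153 on log2(TPM + 1), 107 on log2(TPM + 0.1), 77 on TPM with no filter, and 88 (without ΔAgo2 tumor 4) to 1793 (without ΔAgo2 tumor 1) on leaving out single tumors. Replicate numbers do not mark shared mice, and deviations of same-numbered tumors correlated at -0.29 to 0.103, so they share only a number: with the replicate block 70 genes passed, 0 of the lists and 0 of the 8, and with block and GC correction 279.

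Signs turned for several genes: Ccl3 to 0.01 (total counts, and no filter), 0.04 (equal depth) and 0.14 (TPM), Cxcl16 to 0.10 (TPM), Cxcr6 and Ccl4 to -0.13 (voom), and Cxcr6 to -0.13 without wild-type tumor 4 and ΔAgo2 tumor 1 together. Among other named genes, Cd3e turned to -0.01 (DESeq2 size factors, and 2 TPM scales), -0.00 (DESeq2), -0.02 (TPM + 0.1), -0.62 (voom), -0.22 (block), -0.33 (GC), -0.57 (block and GC), -0.11 (equal depth), -0.06 and -0.29 without wild-type tumors 1 and 3, -0.92 without ΔAgo2 tumor 1 and -0.70 also without wild-type tumor 4. In the same order of voom, without ΔAgo2 tumor 1, and without both, Cd8a turned to -0.25, -0.33 and -0.13, and Irf1 turned to -0.11 and -0.01 under the last 2 of these and to -0.03 without wild-type tumor 3. Leaving out single tumors gave -0.33 to 0.76 for Cd8a and -0.11 to 0.23 for Irf1. Ccl28 lost its call under 10 of 18 alternatives (0.68 to 2.35) and Krt10 under 12 of 22 (1.72 to 2.55), the block among them (adjusted p = 0.175 and 0.13). Adam10, Adam17, Ptprc, Ccr1, Csf1r and Ago2 were called under some alternatives, voom for all but Ccr1 and without ΔAgo2 tumor 1 for Adam10, Adam17, Ptprc and Ago2 (0.85, adjusted p = 0.0441), while GC correction called none of them and gave 0.74, 0.33, 0.39, 0.43, -0.11 and 0.57 in the order listed. The median of all genes was 0.04 in the edgeR fit, 0.10 with total counts, 0.16 with no filter, 0.21 on log2(TPM + 1) and 0.28 on log2(TPM + 0.1). Leaving out single tumors gave 0.37 to 1.72 for Cxcl9, 0.83 to 1.52 for Cxcl10, -0.43 to 0.09 for Cxcl16 (0.00 without wild-type tumor 2, 0.05 without wild-type tumor 4, 0.02 without ΔAgo2 tumor 3), -1.82 to -0.72 for Cxcr3, 0.09 to 1.73 for Cxcr6, -0.28 to 0.25 for Ccl3 (0.16 without ΔAgo2 tumor 2, 0.05 without ΔAgo2 tumor 4), -0.12 to 0.80 for Ccl4 and -1.40 to -0.08 for Ccl5. The ratios ranged over -0.31 to 0.10 for Cxcl9 to Cxcl10 (0.10 without wild-type tumor 1), and, to T cell markers, -1.34 to -0.98 for Cxcr3, 0.68 to 2.33 for Cxcr6 and -0.79 to -0.49 for Ccl5. The cause of these changes was not tested. At equal depth, and with at least 10 counts in every library, Cxcr6 was too low to be tested.

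Limits are the unequal depth, 4 tumors per group and a single ΔAgo2 clone. GC trends also differed between libraries. In log2 units per 10 points of GC they were -0.06, 0.64, -0.16 and 0.86 in wild-type tumors 1 to 4. In ΔAgo2 tumors 1 to 4 they were -0.01, -0.61, -0.23 and -0.43. The trend thus goes partly with genotype and cannot be fully told apart from it. The 8 genes span 43.1% to 54.2% GC around a median of 49.8% over genes tested, with Cxcr3 (54.2%) and Ccl5 (52.8%) the highest.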
